A study of Mus musculus with 9 samples.

Results

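Cyclic nucleotide phosphodiesterases, the enzymes that break down cAMP and cGMP, were followed in mouse lung mRNA as a set of 10 genes around Pde3b, the phosphodiesterase named in the series title beside the nuclear receptor Esrrg. The 10 genes, Pde3a, Pde3b, Pde4a, Pde4b, Pde4d, Pde5a, Pde7a, Pde8a, Pde8b and Pde2a, were chosen by name and all 10 were found among the 21884 genes of the table, 3 by the symbol given there and 7 by their Ensembl identifier. There were 9 libraries from the lungs of male BALB/c mice that entered at 6 weeks of age, 3 in each of 3 groups. OVA+PM2.5 mice were sensitised and challenged with ovalbumin (OVA) and also received drops of fine particulate matter into the nose every day, starting 7 days before the experiment. OVA mice had the same ovalbumin course without particles: 50 µg injected with 1 mg aluminium hydroxide on days 0, 7 and 14, then 400 µg into the nose daily on days 21 to 27. Naive mice were given saline in place of these treatments, and all lungs were taken on day 28. The labels used here give no particle dose and do not say what the OVA mice received in place of particles. They also do not state that each library came from a separate mouse. A p-value here sets the difference between groups against the spread of libraries within groups, and that spread may be technical.

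cAMP and cGMP are second messengers made by adenylyl and guanylyl cyclases and removed by phosphodiesterases, so the balance of synthesis and breakdown sets their level in a cell. In the airway, cAMP relaxes smooth muscle and restrains many inflammatory cells, and cGMP relaxes vascular smooth muscle. The families differ in what they cleave: PDE4, PDE7 and PDE8 act on cAMP, PDE5 acts on cGMP, PDE3 cleaves cAMP and is inhibited by cGMP, and PDE2 cleaves both and is stimulated by cGMP. Inhibitors of PDE4 are used in obstructive lung disease and inhibitors of PDE5 in pulmonary hypertension.

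Values are FPKM, fragment counts scaled to transcript length and library depth, and so can be ordered between genes. Recovered library sizes were 12142765 to 15748051 fragments, and the 9 members other than Pde2a had between 34 and 5165 fragments in each library. The OVA+PM2.5 libraries stood apart from the rest and from each other in genes that mark other tissues. Summed alveolar epithelial markers were 139, 8300.2 and 672.5 FPKM in OVA+PM2.5 replicates 1, 2 and 3, against 4564 to 13619 FPKM in OVA and 13125 to 23114 FPKM in Naive libraries. In OVA+PM2.5 replicate 1, 9 of 9 skeletal muscle markers reached 5 FPKM and exceeded 10 times the highest OVA or Naive library. They were led by the muscle actin Acta1 at 11980.0 FPKM. In replicate 2, 8 of 11 cardiac markers met both limits, led by Myl7, a myosin light chain of the atria, at 2650.0 FPKM. In replicate 3, 7 of 9 adipose markers and 4 of 9 skeletal muscle markers met both. They were led by the brown fat uncoupling protein Ucp1 at 1308 FPKM. Naive replicate 1 held thymocyte and T cell markers at a sum of 350.6 FPKM, against 6.89 and 11.7 FPKM in the other Naive libraries.

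Across the 3 comparisons, the cGMP-specific Pde5a and the cAMP-specific Pde8b fell in OVA+PM2.5 lungs relative to Naive lungs, and no member passed the threshold in OVA+PM2.5 against OVA or in OVA against Naive. Pde5a averaged 3.31 ± 2.5 FPKM in OVA+PM2.5 and 16.1 ± 2.19 FPKM in Naive lungs, and Pde8b averaged 0.399 ± 0.476 and 1.79 ± 0.195 FPKM in the same groups (SD, n = 3 each). Pde3b had the highest mean of all members in OVA+PM2.5, 10.5 FPKM, with an SD of 12.3 that exceeded it, because 1 library of the 3 carried most of the signal. The test was limma on log2(FPKM + 0.5) over all 12982 genes with at least 0.5 FPKM in at least 3 libraries, with Benjamini-Hochberg adjusted p-values and a threshold of 0.05. Fold changes are on this log2 scale, where the added 0.5 shrinks those of weakly expressed genes, and 9 of the 10 members were tested. In OVA+PM2.5 against Naive, 2 of 9 members were called, both lower, where 7.12% of all genes tested were called and 5.59% were called lower. At an unadjusted p under 0.05 stood 4 of 9 members and 34.6% of all genes. The direction of calls over the whole table depended on scaling, with 198 genes higher and 726 lower here, 188 and 110 after median-ratio scaling and 209 and 182 after quantile normalization. For OVA+PM2.5 against OVA, limma called 0 of 9 members and 0.216% of all genes, with 4 members and 27.0% of all genes at an unadjusted p under 0.05. In OVA against Naive it called 0 of 9 members and 0.0154% of all genes, with 1 member and 11.4% of all genes at an unadjusted p under 0.05. The first and the last of these comparisons share the Naive libraries, and the comparisons with OVA share the OVA libraries. The limma fit used 1 spread per gene for all 3 groups, so SEs and calls in OVA against Naive also reflect the OVA+PM2.5 libraries. A fit with 1 weight per group gave 2.15 for Naive, 1.34 for OVA and 0.347 for OVA+PM2.5, lower where libraries differ more. Fitted on its 2 groups alone, OVA against Naive called 895 genes, not 2, and OVA+PM2.5 against Naive 0, not 924. The Pde3b SE in OVA against Naive was then 0.19, not 0.70.

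**Figure D1:**
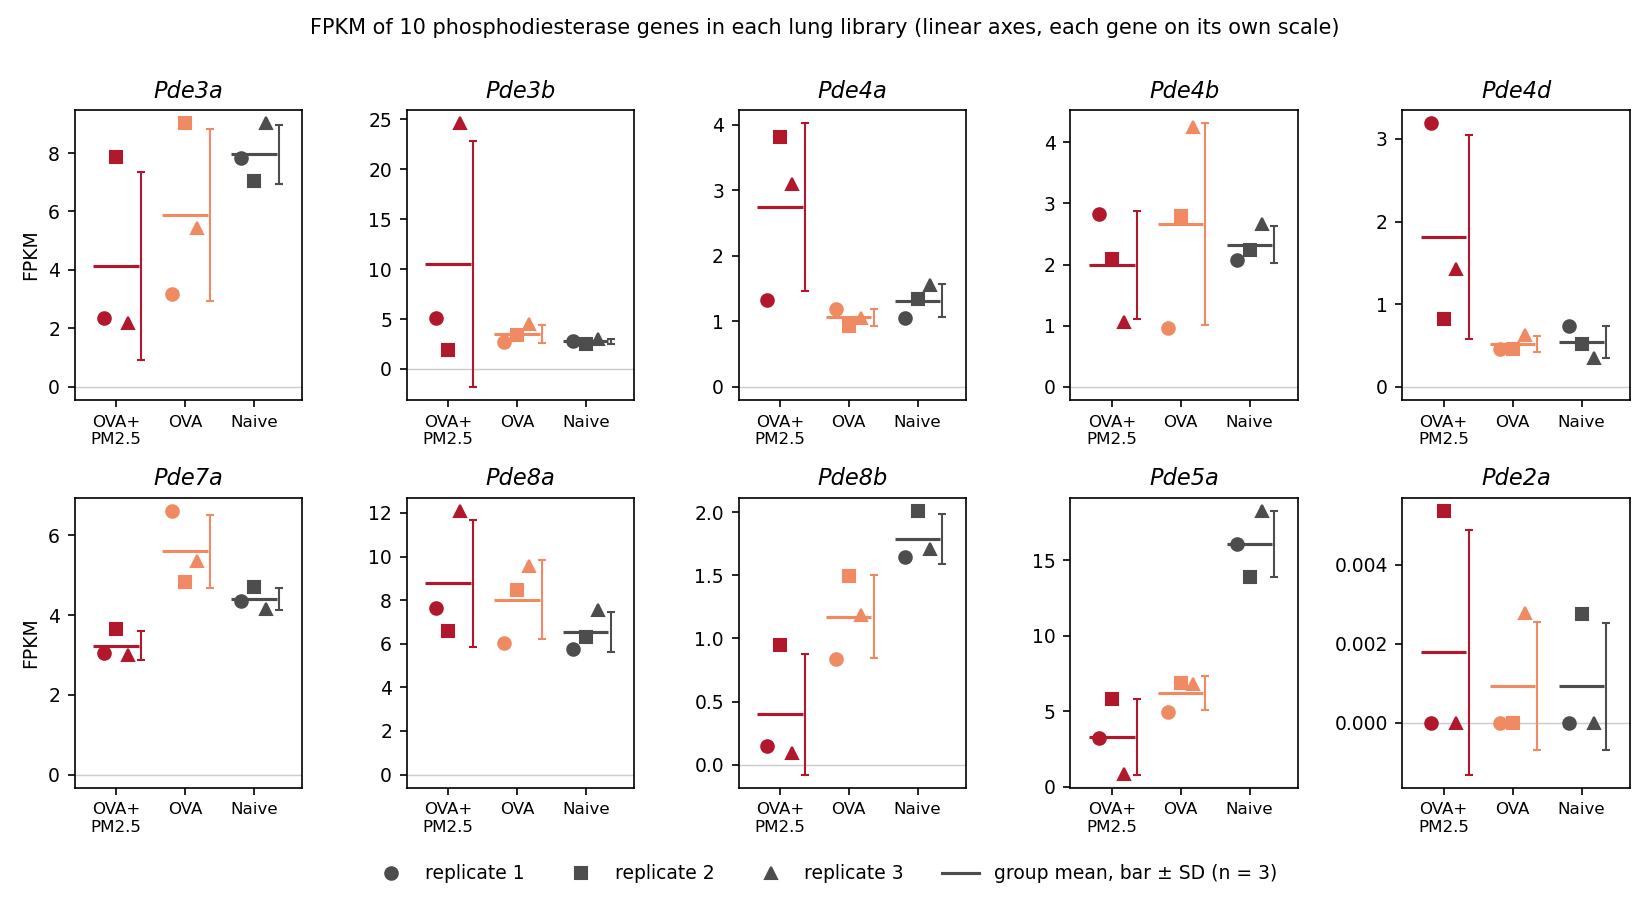
FPKM (vertical axes, linear, 1 scale per gene) of the 10 phosphodiesterase genes in OVA+PM2.5, OVA and Naive lungs; points are libraries with 1 marker shape per replicate number, horizontal lines are group means and vertical bars ± SD (n = 3). Pde5a stood between 0.834 and 5.83 FPKM in OVA+PM2.5 and between 13.9 and 18.3 FPKM in Naive libraries, and the Pde3b mean in OVA+PM2.5 rested on replicate 3 at 24.6 FPKM.

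Levels in Naive lungs give the starting order. Pde5a led at 16.1 ± 2.19 FPKM, followed by Pde3a at 7.96 ± 1.00, Pde8a at 6.53 ± 0.929, Pde7a at 4.4 ± 0.279 and Pde3b at 2.77 ± 0.258 FPKM (SD, n = 3 each). Pde4b, Pde8b, Pde4a and Pde4d came next at 2.33 ± 0.302, 1.79 ± 0.195, 1.32 ± 0.249 and 0.537 ± 0.194 FPKM, and Pde2a, whose gene model overlaps another so that its level cannot be read here, was listed at no more than 0.00276 FPKM in any Naive library. Neighbours in this order overlapped between libraries only for Pde3a with Pde8a and for Pde3b with Pde4b. In OVA lungs the order began with Pde8a at 8.02 ± 1.80, Pde5a at 6.21 ± 1.12, Pde3a at 5.88 ± 2.95 and Pde7a at 5.6 ± 0.917 FPKM, whose ranges overlapped from each to the next, and then kept the Naive order from Pde3b downwards. In OVA+PM2.5 lungs the order by mean began with Pde3b, Pde8a at 8.78 ± 2.91 and Pde3a at 4.13 ± 3.23 FPKM, and every neighbouring pair among the 9 members other than Pde2a overlapped.

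The make-up of the set shifted with these levels. Pde5a made up 11.3%, 17.4% and 1.72% of the summed FPKM of the 10 genes in OVA+PM2.5 replicates 1, 2 and 3, 17.6% to 18.3% in OVA libraries and 34.2% to 38.0% in Naive libraries. It ranked first in all 3 Naive libraries and in no other library. Pde8a, a high-affinity cAMP phosphodiesterase, made up 19.7% to 26.5% in OVA+PM2.5, 22.1% to 24.7% in OVA and 13.6% to 15.7% in Naive libraries. Its level was 7.63, 6.61 and 12.1 FPKM in OVA+PM2.5, against 6.05, 8.45 and 9.57 FPKM in OVA and 5.75, 6.29 and 7.56 FPKM in Naive libraries. Pde8a groups overlapped in all 3 comparisons, with log2 differences of 0.36 (limma, adjusted p 0.350) in OVA+PM2.5 against Naive, 0.10 (0.831) against OVA and 0.26 (0.743) in OVA against Naive, where it changed sign to −0.11 when FPKM were rescaled to a common sum. The summed FPKM of the 10 genes was 28.8, 33.5 and 48.4 in OVA+PM2.5, 26.9, 38.3 and 38.8 in OVA and 42.3, 40.5 and 48.3 in Naive libraries, so the totals overlapped between OVA+PM2.5 and each other group.

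**Figure D2:**
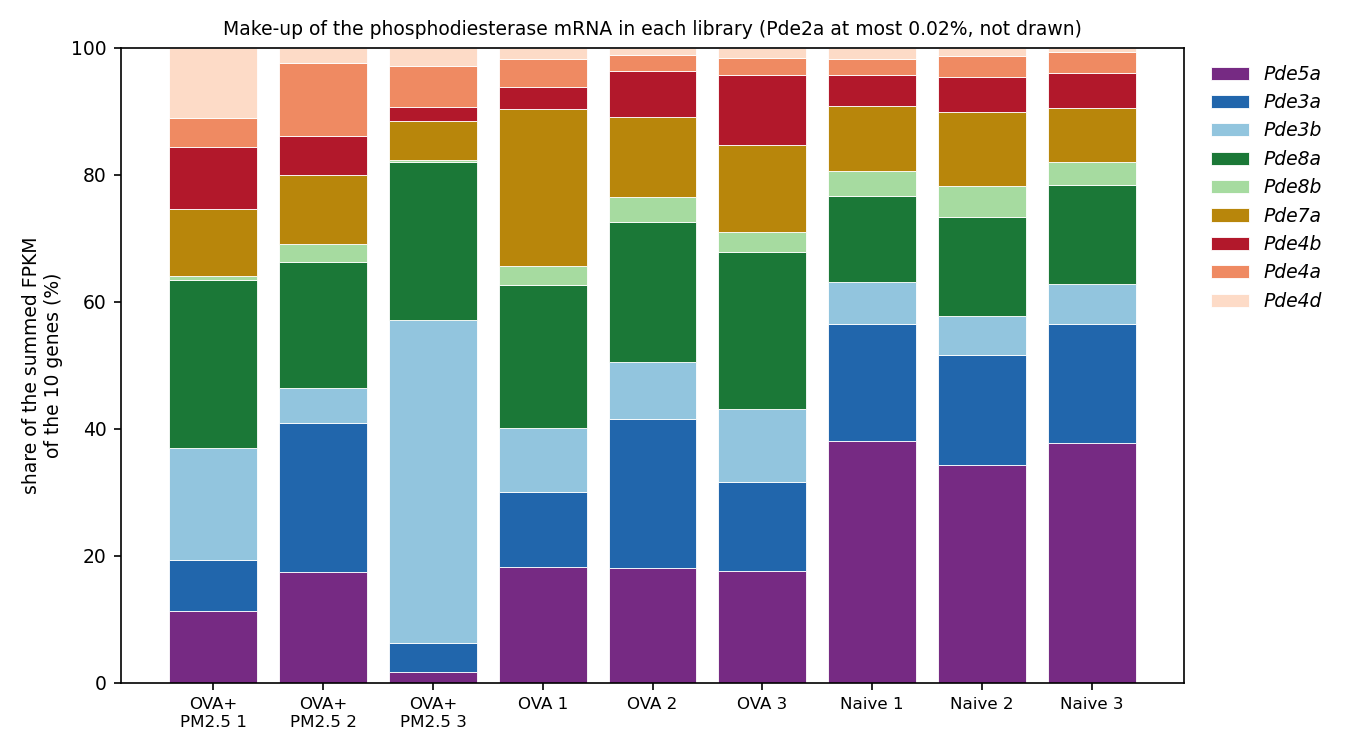
Share of each gene in the summed FPKM of the 10 phosphodiesterase genes (vertical axis, percent) in each library, OVA+PM2.5 at the left, then OVA and Naive. The Pde5a share was 34.2% to 38.0% in Naive libraries and at most 18.3% elsewhere, and Pde3b took 50.8% in OVA+PM2.5 replicate 3.

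Pde3b, a membrane-associated enzyme of adipocytes, hepatocytes and pancreatic beta cells that acts downstream of insulin, is the gene the series title ties to Esrrg. It stood at 5.07, 1.87 and 24.6 FPKM in OVA+PM2.5 replicates 1, 2 and 3, against 2.68, 3.41 and 4.49 FPKM in OVA and 2.75, 2.52 and 3.03 FPKM in Naive libraries. Replicate 3 of OVA+PM2.5 was the highest of all 9 libraries and replicate 2 the lowest of all 9, so OVA+PM2.5 spanned both other groups. The log2 difference was 0.81 (SE 0.70, 95% interval −0.78 to 2.40, limma, adjusted p 0.478) in OVA+PM2.5 against OVA and 1.09 (SE 0.70, −0.50 to 2.67, adjusted p 0.289) against Naive. In OVA against Naive it was 0.28 (−1.31 to 1.87, adjusted p 0.908), and −0.06 when FPKM were rescaled to a common sum. Without OVA+PM2.5 replicate 3 the difference was −0.12 against OVA and 0.16 against Naive (adjusted p 0.856 and 0.776). Without replicate 2 it was 1.58 against OVA (adjusted p 0.0679) and 1.86 against Naive (adjusted p 0.0337), a fit that called 32.7% of all genes in that comparison and 25.4% of all genes against OVA. Single libraries thus decided whether Pde3b stood above the other groups.

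Adipose markers were highest in the library where Pde3b was highest, and did not follow it in every other library. Their summed FPKM, over 9 genes, was 168, 23.9 and 3445 in OVA+PM2.5 replicates 1, 2 and 3, 7.83 to 15.5 in OVA and 5.36 to 115.5 in Naive libraries. In OVA+PM2.5 replicate 3, 9 of 9 adipose markers were above 0, with Ucp1 at 1308, the lipid-binding protein Fabp4 at 761 and the adipokine Adipoq at 210.0 FPKM. Adipoq was at 0 in all OVA libraries and in Naive replicate 1. In OVA+PM2.5 replicate 2, where Pde3b was lowest, Adipoq was at 0.252 and Ucp1 at 2.10 FPKM, and the adipose sum was above all OVA libraries. The largest parts of that sum were Fabp4 at 11.1 and the lipid droplet gene Cidea at 7.22 FPKM. Naive replicate 3, with a sum of 115.5 FPKM, held Adipoq at 15.2 FPKM and Pde3b at 3.03 FPKM, while OVA replicate 3, with a sum of 15.5 FPKM, held Pde3b at 4.49 FPKM. The largest part of the OVA replicate 3 sum was Cidea at 10.7 FPKM, with Ucp1 at 0. The part of adipose tissue in the Pde3b values was not tested.

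The genes whose log2(FPKM + 0.5) profile over the 9 libraries was most like that of Pde3b, among 11267 genes with a mean of at least 1 FPKM, were Ahcyl1 (Pearson r 0.980), Gpd2 (0.978), Peli2 (0.976), Pygl (0.976), Mtch2 (0.975) and Cd79b (0.969). All 6 were highest in OVA+PM2.5 replicate 3, and these correlations describe 9 libraries in which that 1 library stands apart. Gpd2, the mitochondrial glycerol-3-phosphate dehydrogenase, was at 6.0, 1.49 and 34.4 FPKM in OVA+PM2.5, 1.28 to 3.01 in OVA and 1.38 to 1.81 FPKM in Naive libraries. Pygl, a glycogen phosphorylase, was at 11.2, 5.33 and 93.4 FPKM in OVA+PM2.5, 8.36 to 13.4 in OVA and 5.43 to 8.96 FPKM in Naive libraries. As with Pde3b, OVA+PM2.5 replicate 2 lay at or near the bottom of these ranges.

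**Figure D3:**
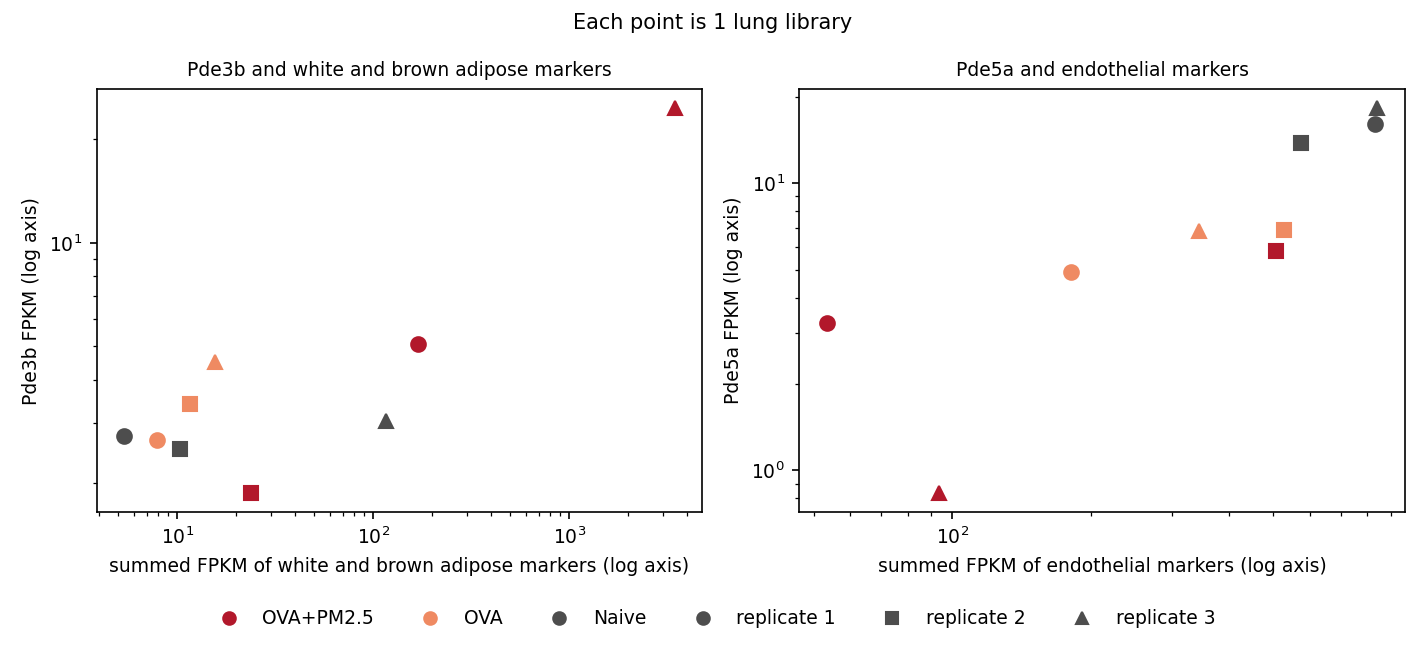
Pde3b FPKM against the summed FPKM of 9 adipose markers (left panel) and Pde5a FPKM against the summed FPKM of 8 endothelial markers (right panel), all axes logarithmic; each point is 1 library, coloured by group with 1 marker shape per replicate number. OVA+PM2.5 replicate 3 lies alone at 3445 FPKM of adipose markers and 24.6 FPKM of Pde3b, and the 3 Naive libraries hold the highest Pde5a and endothelial values.

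Pde3a, the second PDE3 gene and the isoform of heart, platelets and vascular smooth muscle, stood lowest where Pde3b stood highest. It stood at 2.34, 7.85 and 2.20 FPKM in OVA+PM2.5, against 3.17, 9.02 and 5.44 FPKM in OVA and 7.83, 7.03 and 9.02 FPKM in Naive libraries. Replicates 1 and 3 of OVA+PM2.5 lay below all OVA and Naive libraries, and replicate 2 lay among the Naive values. The log2 difference was −1.07 (SE 0.48, limma, adjusted p 0.147) in OVA+PM2.5 against Naive, −0.57 (0.464) against OVA and −0.51 (0.715) in OVA against Naive. Without OVA+PM2.5 replicate 2, Pde3a was lower than in Naive, with a log2 difference of −1.61 (limma, adjusted p 0.0130), in a fit that called 32.7% of all genes. The ratio of Pde3b to Pde3a was 2.17, 0.238 and 11.2 in OVA+PM2.5, 0.843, 0.378 and 0.826 in OVA and 0.352, 0.358 and 0.336 in Naive libraries. Pde3a exceeded Pde3b in all Naive and OVA libraries and in OVA+PM2.5 replicate 2, whose cardiac markers summed to 5567 FPKM, against 465.5 and 222 FPKM in the other OVA+PM2.5 libraries. The part of cardiac tissue in the Pde3a values was not tested.

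The PDE4 genes encode the cAMP-specific phosphodiesterases that dominate in leukocytes and airway smooth muscle. Pde4a stood at 1.33, 3.81 and 3.10 FPKM in OVA+PM2.5, against 1.19, 0.933 and 1.05 FPKM in OVA and 1.05, 1.34 and 1.55 FPKM in Naive libraries. Pde4d stood at 3.19, 0.818 and 1.43 FPKM in OVA+PM2.5, against 0.462, 0.461 and 0.627 FPKM in OVA and 0.738, 0.523 and 0.351 FPKM in Naive libraries. Every OVA+PM2.5 library was above every OVA library for both genes, and above every Naive library for Pde4d. The log2 difference from OVA was 0.97 (SE 0.31, 95% interval 0.28 to 1.66, limma, adjusted p 0.105) for Pde4a and 1.06 (SE 0.35, 0.27 to 1.85, adjusted p 0.113) for Pde4d. Against Naive it was 0.76 (adjusted p 0.120) for Pde4a and 1.04 (adjusted p 0.0810) for Pde4d. In OVA against Naive the differences were −0.21 (adjusted p 0.829) and −0.02 (adjusted p 0.990).

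The threshold for both genes turned on single OVA+PM2.5 libraries. Without replicate 1, where Pde4a was lowest in its group, Pde4a was higher in OVA+PM2.5 than in OVA by 1.34 (limma, adjusted p 0.0420) and than in Naive by 1.13 (adjusted p 0.0464), where 0.516% and 1.10% of all genes were called. Without replicate 2, where Pde4d was lowest in its group and 25.4% and 32.7% of all genes were called, Pde4d was higher than in OVA by 1.40 (adjusted p 0.0132) and than in Naive by 1.38 (adjusted p 0.0121). Pde4d was highest in replicate 1, in which 9 of 9 skeletal muscle markers were above 0 and summed to 14385 FPKM, against 54.4 and 271 FPKM in replicates 2 and 3 and at most 5.59 FPKM in OVA and Naive libraries. The part of muscle tissue in the Pde4d values was not tested.

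Pde4b, the PDE4 gene induced in activated monocytes and macrophages, showed no such separation. It stood at 2.82, 2.09 and 1.06 FPKM in OVA+PM2.5, against 0.959, 2.79 and 4.25 FPKM in OVA and 2.08, 2.24 and 2.66 FPKM in Naive libraries. The groups overlapped in all 3 comparisons, and the spread within OVA covered all values of the other groups. Log2 differences were −0.25 (limma, adjusted p 0.730) in OVA+PM2.5 against OVA, −0.24 (0.703) against Naive and 0.01 (0.995) in OVA against Naive. Neutrophil markers moved with Pde4b within OVA, with sums of 38.0, 1739 and 2690 FPKM in replicates 1, 2 and 3, against 23.7 to 111 FPKM in OVA+PM2.5 and 24.5 to 92.1 FPKM in Naive libraries. The part of neutrophils was not tested.

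Summed over Pde4a, Pde4b and Pde4d, PDE4 mRNA was 7.34, 6.72 and 5.59 FPKM in OVA+PM2.5, against 2.61, 4.19 and 5.92 FPKM in OVA and 3.87, 4.11 and 4.56 FPKM in Naive libraries. The OVA+PM2.5 sums lay above all Naive sums and overlapped the OVA sums. Pde4b was the highest of the 3 in all Naive libraries and in OVA replicates 2 and 3. In OVA+PM2.5 the highest was Pde4d in replicate 1 and Pde4a in replicates 2 and 3, and Pde4b was in no OVA+PM2.5 library the leading PDE4 gene.

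Pde5a encodes the cGMP-specific phosphodiesterase of vascular and airway smooth muscle, the target of sildenafil. It stood at 3.25, 5.83 and 0.834 FPKM in OVA+PM2.5, against 4.92, 6.89 and 6.81 FPKM in OVA and 16.1, 13.9 and 18.3 FPKM in Naive libraries. Every OVA and every OVA+PM2.5 library lay below every Naive library, and OVA+PM2.5 overlapped OVA through replicate 2. Relative to Naive, Pde5a fell in OVA+PM2.5 by 2.38 on the log2 scale (SE 0.49, 95% interval −3.48 to −1.28, limma, adjusted p 0.0377), where the median of all genes tested was −0.33. Against OVA the difference was −1.07 (−2.17 to 0.03, adjusted p 0.196). In OVA against Naive it was −1.31 (−2.41 to −0.21, adjusted p 0.368) in the fit of all 9 libraries. A fit of the 6 OVA and Naive libraries alone called Pde5a lower in OVA (adjusted p 0.0197), where 3.91% of all genes tested were called lower. A fit of all 9 libraries with 1 weight per group also called it (adjusted p 0.0270, with 3.66% of all genes called lower).

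The call of Pde5a in OVA+PM2.5 against Naive held without OVA+PM2.5 replicate 2 (−2.88, limma, adjusted p 0.00210, with 32.7% of all genes called). It also held without replicate 3 (−1.76, adjusted p 0.0218, with 3.22% of all genes called). It was lost without OVA+PM2.5 replicate 1 (−2.50, adjusted p 0.0679) and without any 1 OVA or Naive library, with adjusted p-values of 0.0598 to 0.138 and log2 differences of −2.48 to −2.29. This call was also lost in 5 of 11 other settings, with no filter, median-ratio scaling, the 2-group fit, the replicate block or voom. Endothelial markers, all 8 above 0 in every library, summed to 53.3, 507 and 93.7 FPKM in OVA+PM2.5, 181 to 526 FPKM in OVA and 573 to 841 FPKM in Naive libraries. Smooth muscle markers summed to 1267, 251 and 65.5 FPKM in OVA+PM2.5, 203 to 316 FPKM in OVA and 124 to 168 FPKM in Naive libraries. Of these sums, desmin, which skeletal muscle also makes, held 1146, 143 and 41.6 FPKM in OVA+PM2.5. It was at 49.8 to 64.5 FPKM in OVA and 32.0 to 45.65 FPKM in Naive libraries. The smooth muscle actin Acta2 was at 69.1, 84.5 and 17.2 FPKM in OVA+PM2.5, 98.2 to 175 FPKM in OVA and 68.1 to 89.5 FPKM in Naive libraries. In OVA+PM2.5 replicate 2, whose alveolar and endothelial sums lay within the OVA range, Pde5a at 5.83 FPKM was also within the OVA range and below all Naive libraries. The part of cell content in the Pde5a values was not tested, and in whole lung fewer cells of a type and less RNA per cell cannot be told apart.

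Pde8b, a high-affinity cAMP phosphodiesterase known from thyroid and adrenal gland, was the second member that fell. It stood at 0.153, 0.948 and 0.0965 FPKM in OVA+PM2.5, against 0.839, 1.49 and 1.18 FPKM in OVA and 1.64, 2.01 and 1.71 FPKM in Naive libraries. These values rest on 62, 416 and 34 recovered fragments in OVA+PM2.5, 350, 681 and 499 in OVA and 736, 855 and 781 in Naive libraries. Both treated groups lay below all Naive libraries, and OVA+PM2.5 overlapped OVA through replicate 2, while replicates 1 and 3 lay below all OVA libraries. Relative to Naive, Pde8b fell in OVA+PM2.5 by 1.47 on the log2 scale (SE 0.33, 95% interval −2.22 to −0.71, limma, adjusted p 0.0431). Against OVA the difference was −1.0 (SE 0.33, adjusted p 0.114), and in OVA against Naive it was −0.47 (adjusted p 0.615). The call against Naive held without OVA+PM2.5 replicate 2 (−1.87, limma, adjusted p 0.00120), where 32.7% of all genes were called. It was lost without any other 1 library, with adjusted p-values of 0.0648 to 0.139. It was also lost in 7 of 11 other settings, with a pseudocount of 0.1, no filter, median-ratio scaling, quantile normalization, the 2-group fit, the replicate block or voom (adjusted p 0.0517 to 0.119). Alveolar epithelial markers at 139, 8300.2 and 672.5 FPKM and endothelial markers at 53.3, 507 and 93.7 FPKM were, like Pde8b, highest in replicate 2 of OVA+PM2.5, and their part in the Pde8b values was not tested. Reads were not stated to be counted by strand, and 7.6% of the Pde8b exonic bases lie opposite another annotated gene.

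Pde7a, a cAMP-specific phosphodiesterase of T cells and skeletal muscle, kept the 3 groups apart. It stood at 3.04, 3.65 and 3.00 FPKM in OVA+PM2.5, against 6.61, 4.83 and 5.35 FPKM in OVA and 4.35, 4.70 and 4.15 FPKM in Naive libraries. Every OVA library was above every Naive library, and every OVA+PM2.5 library was below both. The log2 difference was −0.70 (SE 0.18, 95% interval −1.11 to −0.30, limma, adjusted p 0.0849) in OVA+PM2.5 against OVA and −0.40 (adjusted p 0.152) against Naive. It was 0.31 (adjusted p 0.544) in OVA against Naive, and −0.06 when FPKM were rescaled to a common sum. Without OVA+PM2.5 replicate 2 the difference from OVA was −0.78 (limma, adjusted p 0.0192), in a fit that called 25.4% of all genes.

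The number of members whose groups did not overlap can be set beside that of the whole table. Between OVA+PM2.5 and Naive, 4 of 9 members did not overlap, Pde4d above and Pde5a, Pde7a and Pde8b below, where 40.1% of all genes tested did not. Between OVA+PM2.5 and OVA, 3 of 9 did not, Pde4a and Pde4d above and Pde7a below, where 26.9% of all genes did not. Between OVA and Naive, 3 of 9 did not, Pde7a above and Pde5a and Pde8b below, where 33.6% of all genes did not. The median log2 difference of the 9 members was −0.24, −0.25 and −0.02 in these comparisons, beside −0.33, −0.23 and −0.11 over all genes. These shares and medians are near the background, so they show nothing particular to the phosphodiesterases.

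**Figure D4:**
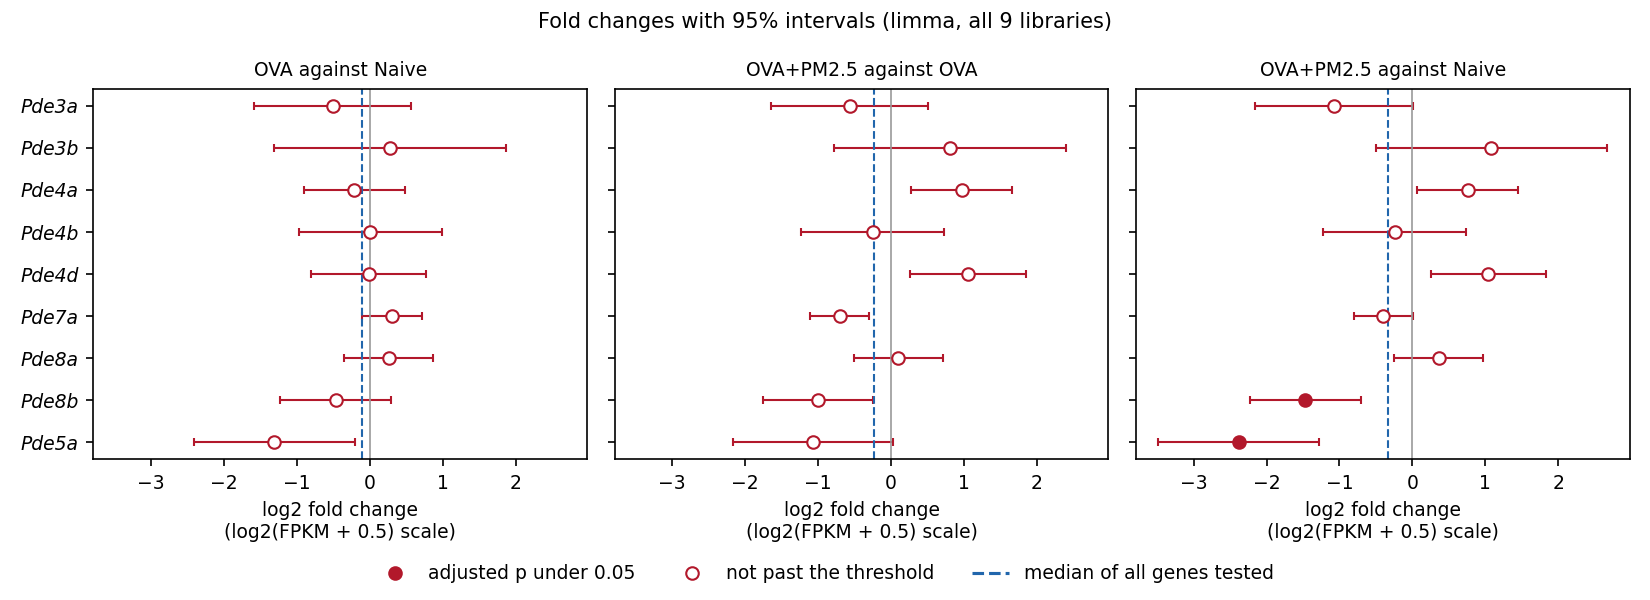
Log2 fold changes of the 9 tested phosphodiesterase genes (horizontal axis, log2(FPKM + 0.5) scale) in the 3 comparisons, with 95% intervals from limma on all 9 libraries; filled points passed an adjusted p of 0.05 and the dashed line is the median of all 12982 genes tested. The filled points are Pde5a at −2.38 and Pde8b at −1.47 in OVA+PM2.5 against Naive.

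Pde2a, the cGMP-stimulated phosphodiesterase of endothelial cells, was listed at 0, 0.00536 and 0 FPKM in OVA+PM2.5, 0, 0 and 0.00279 FPKM in OVA and 0, 0.00276 and 0 FPKM in Naive libraries. These are at most 2 recovered fragments in a library, so Pde2a did not pass the filter and was not tested. In the GENCODE M21 annotation, 64.3% of its exonic bases are shared on the same strand with a second gene model, Gm45837. How fragments shared by 2 gene models were counted is not given in the sources used here, so the Pde2a level cannot be read from these values.

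Promoter sequences of the members were read from RefSeq (GRCm38.p6, 250 bases upstream of each start site), which held 20 start sites of 7 members. Pde3a, Pde3b and Pde7a had no entry. The estrogen-related receptor element TNAAGGTCA, the kind of site that Esrrg binds, was searched on both strands and was in 0 of the 20 windows and in 1.14% of 32851 promoter windows of all genes. The cAMP response element TGACGTCA, which reads the same on both strands, was in 0 of the 20 and in 1.55% of all windows. The GC box GGGCGG, searched on both strands and added after the values had been seen, was in 7 of the 20 windows, of 5 members, and in 32.7% of all. Some windows of a gene overlap, those of Pde8b among them, so the same site can fall in several windows. Shown are a Pde8b window at each of its 2 separate start regions, since Pde8b fell and its regions differ in base composition, and the first Pde4a window, since Pde4a was higher in every OVA+PM2.5 than in every OVA library. GC boxes are in capitals, and sequences run 5′ to 3′ on the strand of the gene.
Pde8b promoter, chr13:95223093-95223342, minus strand, 75.6% G or C: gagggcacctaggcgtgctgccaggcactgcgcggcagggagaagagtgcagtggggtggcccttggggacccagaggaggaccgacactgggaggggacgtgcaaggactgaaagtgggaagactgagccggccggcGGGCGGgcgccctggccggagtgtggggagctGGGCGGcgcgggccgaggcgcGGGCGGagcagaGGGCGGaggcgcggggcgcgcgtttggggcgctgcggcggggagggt
Pde8b promoter, chr13:95250337-95250586, minus strand, 54.4% G or C: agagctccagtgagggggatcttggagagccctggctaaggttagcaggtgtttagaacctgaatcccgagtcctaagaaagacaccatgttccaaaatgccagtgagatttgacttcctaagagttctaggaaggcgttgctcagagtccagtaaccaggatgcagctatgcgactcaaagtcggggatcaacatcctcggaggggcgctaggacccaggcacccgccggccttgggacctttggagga
Pde4a promoter, chr9:21165464-21165713, plus strand, 68.8% G or C: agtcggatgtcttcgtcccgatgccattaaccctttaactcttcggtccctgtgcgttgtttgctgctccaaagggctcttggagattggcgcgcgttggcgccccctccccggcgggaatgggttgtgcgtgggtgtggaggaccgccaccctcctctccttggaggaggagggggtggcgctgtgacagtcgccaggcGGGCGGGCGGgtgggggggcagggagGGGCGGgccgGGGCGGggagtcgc
The first Pde8b window holds 4 GC boxes and the second holds 0, and the Pde4a window holds 4, of which 2 overlap. The median window of all genes was 52.4% G or C. FPKM per gene do not separate start sites, and a match or its absence describes these letters only.

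Esrrg, an orphan nuclear receptor of oxidative tissues, was at 1.93, 1.00 and 0.880 FPKM in OVA+PM2.5, against 0.338, 0.348 and 0.468 FPKM in OVA and 0.126, 0.203 and 0.193 FPKM in Naive libraries. Every OVA+PM2.5 library was above every OVA library, and every OVA library above every Naive library. Esrrg rose in OVA+PM2.5 against Naive by 1.35 (SE 0.24, limma, adjusted p 0.0296, with 1.53% of all genes higher), a call lost without any 1 OVA or Naive library (adjusted p 0.0510 to 0.130), in the 2-group fit (0.111) and with the replicate block (0.0543). Esrrg passed the filter on low values only through the 3 OVA+PM2.5 libraries, where it was high, so its place among the genes tested rests on the difference itself; with no filter its adjusted p was 0.0475. The difference was 0.96 (adjusted p 0.0846) against OVA and 0.39 (adjusted p 0.555) in OVA against Naive. Its highest library was OVA+PM2.5 replicate 1, while that of Pde3b was replicate 3, and in replicate 2, with Esrrg at 1.00 FPKM, Pde3b was at its lowest. The 3 OVA+PM2.5 libraries also held markers of tissues other than lung. Skeletal muscle markers summed to 14385 FPKM in replicate 1, cardiac markers to 5567 FPKM in replicate 2 and adipose markers to 3445 FPKM in replicate 3. The part of these tissues in the Esrrg values was not tested.

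The other genes of cyclic nucleotide signalling were counted in 4 lists, with 4, 15, 17 and 20 genes tested. Together they held 10 called genes in OVA+PM2.5 against Naive, where 7.12% of all genes were called. That count was 4 with a pseudocount of 0.1, 1 with no filter, 2 with median-ratio scaling, 3 with quantile normalization, 4 with 1 weight per group and 0 in the 2-group fit, with the replicate block or with voom, so the calls below depend on the setting. Of 14 other genes with phosphodiesterase names, not all of them enzymes, 4 passed the filter and limma called 0 in each comparison. Pde9a, a cGMP-specific enzyme, was at −0.80 (adjusted p 0.0902) and Pde6d, a prenyl-binding protein named for its place in the photoreceptor enzyme, at −0.32 (0.324) in OVA+PM2.5 against Naive, and Pde6d changed sign to 0.04 after median-ratio scaling. Against OVA the smallest p-values were those of Pde9a at −0.74 (0.144) and Pde1b at −0.25 (0.458), and in OVA against Naive those of Pde6d at −0.46 (0.477) and Pde7b at −0.27 (0.684). Among the 9 members and these 4 genes, Pde5a and Pde8b were the 2 called by this fit in any of the 3 comparisons.

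Relative to Naive, 4 of 15 tested cyclase and nitric oxide synthase genes fell in OVA+PM2.5 and 0 rose, beside 5.59% of all genes lower. Both subunits of soluble guanylyl cyclase, which makes the cGMP that Pde5a removes, were among them. Gucy1b1 was at 3.20, 10.2 and 1.20 FPKM in OVA+PM2.5, against 6.11, 12.4 and 11.4 in OVA and 26.2, 21.1 and 32.6 FPKM in Naive libraries (−2.72 against Naive, limma, adjusted p 0.0398). Gucy1a1 was at 3.42, 8.57 and 1.28 FPKM in OVA+PM2.5, against 4.43, 7.52 and 9.03 in OVA and 16.6, 13.9 and 19.9 FPKM in Naive libraries (−2.10, adjusted p 0.0485). The Gucy1b1 call was lost in 6 of 11 other settings and that of Gucy1a1 in 8. As for Pde5a, all OVA and OVA+PM2.5 libraries lay below all Naive libraries. The inducible nitric oxide synthase Nos2 fell by 1.28 (adjusted p 0.0293) and the adenylyl cyclase Adcy8 fell by 1.77 (adjusted p 0.0340), calls lost in 5 of 11 other settings each. Against OVA 0 of 15 were called, with Gucy1b1 at −1.30 (0.196) and Nos2 at −0.47 (0.201), and in OVA against Naive 0 of 15, with Nos2 at −0.80 (0.269) and Adcy8 at −1.10 (0.312). The median of the list was −0.59 in OVA+PM2.5 against Naive, −0.20 against OVA and −0.59 in OVA against Naive, beside −0.33, −0.23 and −0.11 over all genes.

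Among effectors of cAMP and cGMP, 1 of 17 tested genes fell in OVA+PM2.5 against Naive, the cAMP-activated exchange factor Rapgef3 (−1.19, limma, adjusted p 0.0443), a call lost in 8 of 11 other settings. With 5.59% of all genes lower, a count of 1 is near the background. Against OVA 1 of 17 fell, beside 0.0231% of all genes, Cnga2, a subunit of the olfactory cyclic nucleotide-gated channel (−1.80, adjusted p 0.0328). Cnga2 was at 0, 0.173 and 0.0240 FPKM in OVA+PM2.5, against 1.62, 1.04 and 1.76 FPKM in OVA and 0.283, 0.159 and 0.129 FPKM in Naive libraries, so OVA stood above both other groups, at no more than 88 recovered fragments. Its call was lost without any 1 OVA or Naive library (adjusted p 0.0762 to 0.209) and in 5 of 11 other settings. Cnga2 passed the filter only through the 3 OVA libraries, where it was high, so its place among the genes tested rests on the difference itself; with no filter its adjusted p was 0.0402. In OVA against Naive 0 of 17 were called, with Cnga2 at 1.5 (0.0663) and Rapgef4 at −0.63 (0.402). The medians were −0.28, −0.10 and −0.25 in OVA+PM2.5 against Naive, OVA+PM2.5 against OVA and OVA against Naive, beside the same medians over all genes as above.

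Of 20 tested anchoring proteins, receptors and exporters, 5 fell in OVA+PM2.5 against Naive and 0 rose, beside 5.59% of all genes lower. Akap12, a scaffold that anchors protein kinase A, was at 1.35, 4.25 and 0.999 FPKM in OVA+PM2.5, against 3.63, 6.34 and 3.68 FPKM in OVA and 9.48, 7.35 and 8.35 FPKM in Naive libraries. All OVA+PM2.5 libraries lay below all Naive libraries, and replicate 2 overlapped OVA. Akap12 fell in OVA+PM2.5 against Naive by 1.91 on the log2 scale (SE 0.41, limma, adjusted p 0.0397), and the difference against OVA was −1.05 (adjusted p 0.150). The inhibitory G protein subunit Gnai2 (−1.03, 0.0466), the prostaglandin E2 receptor Ptger2 (−0.83, 0.04999) and the vasoactive intestinal peptide receptor Vipr2 (−1.29, 0.0436) were also among the genes of this list that fell against Naive. The Akap12 call was lost in 6 of 11 other settings and those of Gnai2, Ptger2 and Vipr2 in 8 each. Called against OVA were 0 of 20, with Adcyap1r1 at −0.89 (0.0791), and called in OVA against Naive 0 of 20, with Adcyap1r1 at 1.23 (0.0768) and Akap9 at 0.58 (0.365). The medians were −0.51, −0.52 and −0.12 in the same order of comparisons, against −0.33, −0.23 and −0.11 over all genes. The 4 lists together held 0 called genes in OVA+PM2.5 against Naive without any 1 Naive or OVA library or without OVA+PM2.5 replicate 1. They held 2 without replicate 3, where 3.22% of all genes were called, and 23 without replicate 2, where 32.7% were.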

How the data were processed

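Lung mRNA of 9 libraries (OVA+PM2.5, OVA and Naive, 3 each) was deposited by the authors as FPKM per gene. Per the labels' protocols, RNA was extracted with Trizol, selected on poly-T beads and prepared with NEBNext Ultra, and per the submitters' processing notes the genome was GRCm39. The aligner, the counter and the strand setting: not given in the sources used here.

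Genes were named by the table's symbol (13132) or by Ensembl identifier (8725), with 27 left unnamed and 3610 at 0 in every library. From the ratios of FPKM between libraries, fragment counts could be recovered as whole numbers for 17298 of 17298 genes (100.0%, tolerance 0.001), hence library sizes of 12142765 to 15748051. Many multipliers were tried, so for genes above 0 in few libraries a match was likely whatever the values and is no test of recovery. The recovered counts served for depth, counting error and a voom alternative. No pair of libraries agreed within counting noise (smallest mean chi-square 39.2 per gene), so none was taken as a repeat deposit of another; whether each came from a separate mouse is not shown by this.

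The test was limma 3.58.1 in R 4.3.3 with a variance trend on log2(FPKM + 0.5), in 1 fit of 9 libraries with group as the term (6 residual degrees of freedom, plus 2.79 prior ones at the median). Genes with at least 0.5 FPKM in at least 3 libraries were kept (12982), and Benjamini-Hochberg adjustment ran over all of them, comparison by comparison. The limma step was tested on simulated data drawn with 1 spread per gene for all 3 groups. Group spreads differed in these libraries, and the simulation cannot show how the fit behaves there. An exact permutation test of 3 against 3 cannot go below 0.1 and was not used. Alternatives were other pseudocounts, filters and scalings, 2-group fits, 1 weight per group, a replicate block, voom and leaving out each library.

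Named were the 10 members, Esrrg, the called genes of each pathway list or else its 2 smallest p, the leading marker genes, and the 6 genes most like Pde3b. The values of 1 listed gene are not reported here. Fabp4, Adipoq, Cidea, desmin and Acta2 were named after their values were seen. Members and lists were chosen with earlier results of these data known. Promoters and gene models come from RefSeq (GRCm38.p6) and GENCODE M21, another build than the table's, so no position is tied to a value. Figures used Python 3.11.15 and matplotlib 3.10.9.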

Additional observations from a re-analysis of the deposited data

How the results depend on the processing

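Of the fold changes of the members under all alternatives, 475 kept their direction and their side of the threshold, 27 lost the call, 11 gained one and 24 changed sign; each sign change was of a difference that was not called. Members called in OVA against Naive were 0, and 1 (Pde5a, lower) in the 2-group fit and with 1 weight per group. In OVA+PM2.5 against Naive, the 2 calls (Pde5a and Pde8b) became 1 (Pde5a) with a pseudocount of 0.1 or quantile normalization, and 0 with no filter, median-ratio scaling, the 2-group fit, the replicate block or voom, with adjusted p of 0.0547 to 0.116 for Pde5a and 0.0535 to 0.119 for Pde8b in those 5; the cause was not tested. Leaving out 1 library gave 0 to 5 called members in this comparison and 0 to 4 in OVA+PM2.5 against OVA. Over all 12982 genes it gave 0 to 4248 and 0 to 3295 calls in the same comparisons. Pde3b differences were then 0.16 to 1.86 and −0.12 to 1.58, lowest without OVA+PM2.5 replicate 3 and highest without replicate 2.

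Sign changes in OVA against Naive were, with FPKM rescaled to a common sum, Pde3b −0.06, Pde4b −0.29, Pde7a −0.06 and Pde8a −0.11; with a pseudocount of 0.1, Pde4b −0.03; and for Pde4d 0.05 with median-ratio scaling, 0.02 with quantile normalization and 0.11 with voom. In OVA+PM2.5 against Naive, the same 3 settings gave 0.07, 0.05 and 0.09 for Pde4b and 0.04, 0.01 and 0.05 for Pde6d. Leaving out 1 library gave ranges across 0 for Pde4b (−0.36 to 0.49, −0.73 to 0.12 and −0.48 to 0.06 in OVA against Naive, OVA+PM2.5 against OVA and OVA+PM2.5 against Naive), for Pde4d (−0.15 to 0.12 in OVA against Naive) and for Pde8a (−0.14 to 0.27 in OVA+PM2.5 against OVA).

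Deviations of same-numbered libraries from their group means correlated at −0.171 to 0.278, 3 of 9 over 0.1. Libraries of different number were not correlated for reference, so whether equal numbers share a batch or pairing cannot be told. With the replicate block Pde3b was 0.28, 0.81 and 1.09 (limma, adjusted p 0.905, 0.425 and 0.242) in OVA against Naive, OVA+PM2.5 against OVA and OVA+PM2.5 against Naive. Over the whole table, OVA+PM2.5 against Naive called 924 genes, and 488 with a pseudocount of 0.1, 157 with no filter, 298 with median-ratio scaling, 1645 with a common sum, 391 with quantile normalization, 0 in the 2-group fit, 473 with 1 weight per group, 50 with the block, 152 with voom and 0 to 4248 without 1 library. OVA+PM2.5 against OVA called 28, and 12 to 138 over pseudocounts, filters, scalings and voom, 0 in the 2-group fit and with the block, 7 with weights and 0 to 3295 without 1 library. OVA against Naive called 2, and 0 to 40 over those settings, 895 in the 2-group fit, 817 with weights, 0 with the block and 0 to 54 without 1 library. Scaling moved the median of all genes from −0.33 to −0.03 (median-ratio) or −0.49 (common sum) in OVA+PM2.5 against Naive. Pde4d did not reach the filter of 1 FPKM, so that setting gave no value for it, and a planned comparison of protein sequences was not run. Depth limits Pde8b, at 34 to 62 fragments in 2 OVA+PM2.5 libraries.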
